A study of Mus musculus with 18 samples.

Results

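Macrophages are phagocytes that engulf dead cells and particles, digest them in lysosomes and present or secrete products of that digestion. In the small intestine they lie mainly in the lamina propria, the connective tissue core of the villus under the epithelium, and depend on growth factor signals through the receptor encoded by Csf1r. The 39 genes described here, of 55414 in the deposited table, were given as a fixed list of macrophage and myeloid genes and were matched by symbol. They comprise leukocyte-wide genes, a lineage factor, growth factor and chemokine receptors, identity markers, scavenger and Fc receptors, complement C1q, lipid-handling genes and lysosomal or secreted products.

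The 18 libraries, 3 in each of 6 groups, came from organoid cultures of the small intestine of wild-type C57BL/6J mice, and all were harvested on day 6. VIL cultures were started from villi scraped within 3 cm of the pylorus and kept in a collagen type I gel under 25% cWRNE medium. Per the protocol, the villi held back by a strainer were the ones embedded. COL_cWRNE cultures were started from EDTA-released crypts, which had passed a strainer, in the same matrix and medium. ENR stands for the epidermal growth factor, Noggin and R-spondin in that medium, and the make-up of ENRW and cWRNE is not given in the labels. COL_5FU and COL_Control were crypt cultures in collagen type I with ENRW medium, and MG_5FU and MG_Control were crypt cultures in Matrigel with ENR medium. The COL_5FU and MG_5FU cultures received 40 µM 5-fluorouracil (5-FU), a pyrimidine analog, from day 4. The series describes the 3 replicates of a group as biological. VIL therefore differed from COL_cWRNE in the starting tissue, in the stretch of intestine and in the way the tissue was freed, and these cannot be told apart. No step that selects epithelial cells by sorting is given in the protocols, and the labels call the cells of every library intestinal epithelial cells.

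Library totals ran from 22.3 to 34.5 M estimated counts. Levels below are TPM as deposited, transcript abundance scaled for gene length and library depth. Changes are log2 fold changes ± SE from edgeR's quasi-likelihood test on the estimated counts, and a gene was called at a Benjamini-Hochberg adjusted p under 0.05 over all genes tested. In bulk RNA of this kind, fewer cells of a type and less RNA per cell cannot be told apart.

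The 39 genes together made up 1989, 6670 and 11830 TPM in VIL replicates 1, 2 and 3, against 185, 204 and 173 TPM in COL_cWRNE. In the other 12 libraries their sum was 77.2 to 123 TPM. All 3 VIL libraries lay above all 15 crypt-derived libraries for 35 of the 39 genes, and 36 were above all 3 COL_cWRNE libraries. The same counts were not made over all genes, so 35 and 36 have no background share here. Most of these RNAs were scarce in the crypt-derived libraries, where 25 genes stayed under 1 TPM in all 15. Spi1, Adgre1, Marco, Msr1 and Fcgr1 had 0 counts in all 15.

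**Figure D1:**
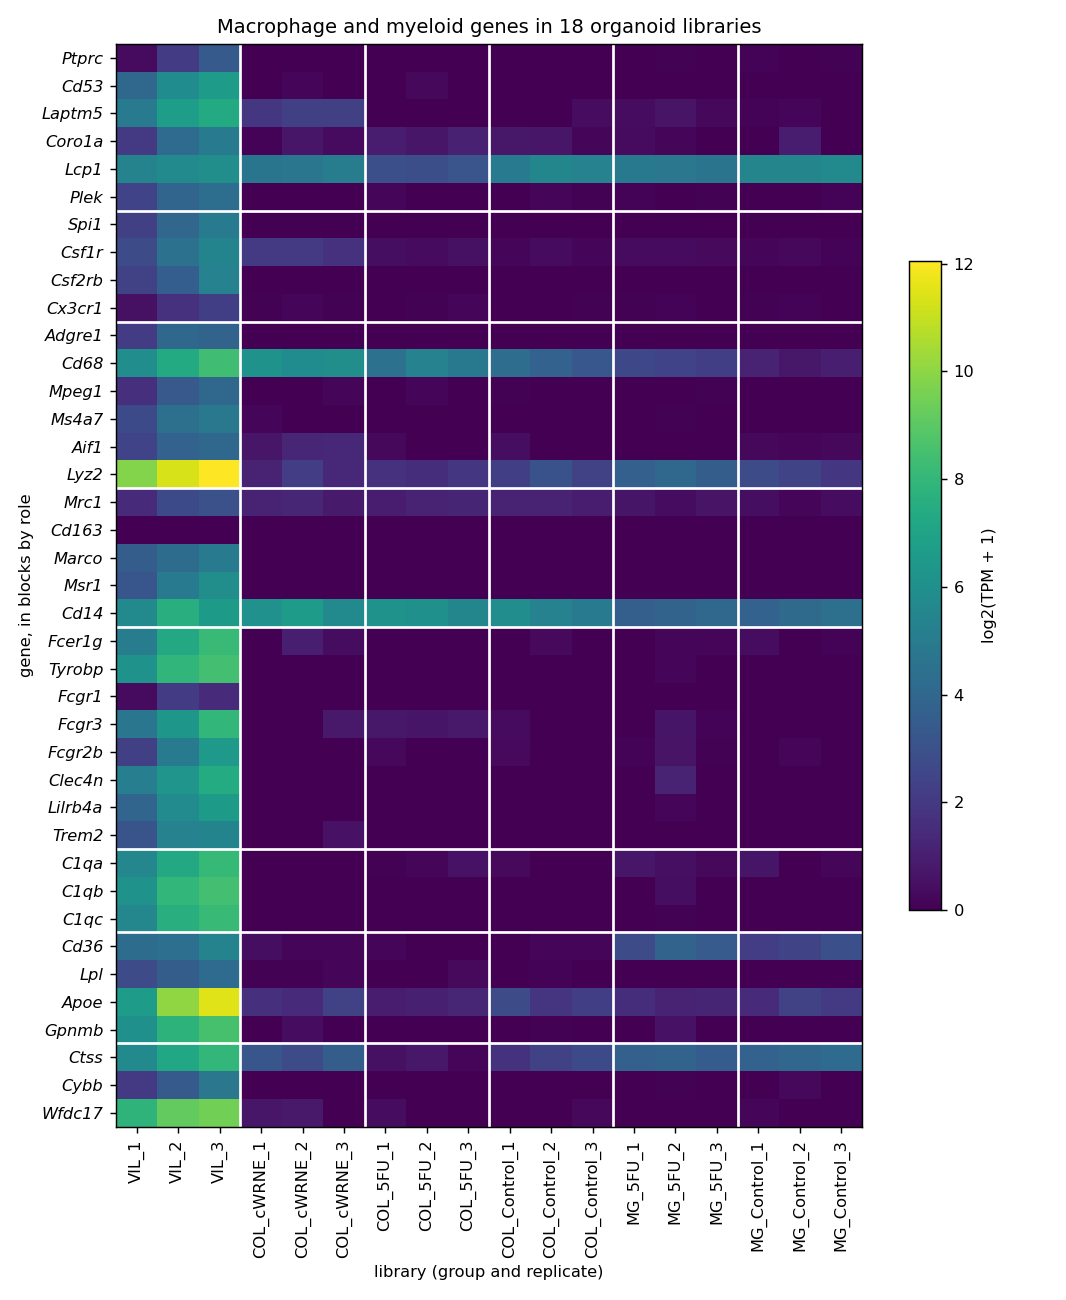
Levels of the 39 genes (rows, in blocks by role) in each of the 18 libraries (columns, by group and replicate), coloured by log2(TPM + 1). The 3 VIL columns are bright in nearly every row, while the crypt-derived columns show colour mainly for Lcp1, Cd68, Cd14, Ctss, Lyz2, Apoe and Cd36.

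The labels give an epithelial cell type. The 14 markers of intestinal epithelium summed to 22410 to 23280 TPM in VIL and to 22570 to 28960 TPM in COL_cWRNE, and 1 of the 14, Krt20, was called between these groups. The sums are carried by keratin genes and Lyz1, and the 14 differed in level: Olfm4, a crypt stem cell marker, had 21.5, 6.71 and 0.103 TPM in VIL, against 76.1, 28.5 and 75.6 TPM in COL_cWRNE. Epcam, an epithelial adhesion gene, had 1971, 1478 and 2049 TPM in VIL, against 1576, 1657 and 1714 TPM in COL_cWRNE (log2 fold change 0.20 ± 0.14, edgeR adjusted p = 0.478). The 10 macrophage markers were Ptprc, Adgre1, Csf1r, Cd68, C1qa, Fcgr1, Mpeg1, Spi1, Tyrobp and Fcer1g, and none was at 0 over the VIL group. All belong to the gene list described here, so they are no separate support. Not all are specific to macrophages, since Ptprc is a leukocyte-wide gene. Over the COL_cWRNE group 6 of the 10 were at 0 counts, namely Ptprc, Adgre1, C1qa, Fcgr1, Spi1 and Tyrobp, and Cd68 gave most of the remaining level.

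The comparison of VIL with COL_cWRNE set villus-derived against crypt-derived organoids in 1 matrix and medium. Of the 39 genes, 38 passed the filter on low counts, and 36 rose and 0 fell in VIL, where 7.64% of the 16699 genes tested were called (5.68% higher, 1.96% lower). The median log2 fold change of the 38 was 9.52, or 8.81 with genes at 0 counts in COL_cWRNE set to the bound that 3 counts over the group allow, beside -0.03 over all genes tested. Of the 38, 28 passed the filter only through their VIL counts and so had to differ. Cd163, the haemoglobin scavenger receptor, was not tested: it had 1 count in VIL and 1 in COL_Control.

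Leukocyte-wide genes rose in VIL, all 6 of them. Ptprc, which encodes the CD45 phosphatase on nucleated blood cells, had 0.293, 3.40 and 9.55 TPM in VIL and 0 counts in the 3 COL_cWRNE libraries. The VIL level was at least 368-fold higher (edgeR adjusted p = 0.0186), a call that ended without any 1 COL_cWRNE library (edgeR adjusted p of 0.0613 to 0.0667). VIL replicate 1 held 27 counts of it, and replicates 2 and 3 held 360 and 600. Cd53, a tetraspanin of leukocytes, had 15.5, 57.2 and 98.1 TPM in VIL, against 0, 0.177 and 0 TPM in COL_cWRNE. Plek, which encodes pleckstrin, a protein kinase C substrate of platelets and leukocytes, had 4.42, 14.4 and 19.6 TPM in VIL and 0 counts in COL_cWRNE, at least 1103-fold higher. In the other 12 libraries Ptprc reached 0.098 TPM, Cd53 0.216 TPM and Plek 0.16 TPM, so VIL and crypt-derived values did not overlap for these 3 genes.

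Coro1a, which encodes an actin-binding coronin of leukocytes, had 3.07, 17.4 and 29.9 TPM in VIL, against 0.096, 0.649 and 0.264 TPM in COL_cWRNE (5.50 ± 1.39, edgeR adjusted p = 0.0417). Its call ended in 6 alternatives that used fewer libraries (edgeR adjusted p of 0.0638 to 0.293). Laptm5, a lysosomal membrane protein of blood cells, had 31.6, 108 and 163 TPM in VIL, against 2.74, 3.89 and 3.84 TPM in COL_cWRNE (5.03 ± 0.59, edgeR adjusted p = 0.00248). Lcp1, which encodes the actin-bundling L-plastin, differed least among the called genes, with 41.0, 51.5 and 61.6 TPM in VIL, against 25.1, 25.9 and 32.4 TPM in COL_cWRNE (1.08 ± 0.15, edgeR adjusted p = 0.00413). Lcp1 was at 23.6 TPM or more in all crypt-derived libraries but those of COL_5FU, which had 6.39 to 8.06 TPM. Coro1a reached 1.14 TPM in the other 12 libraries.

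The lineage factor and receptor genes rose, 4 of 4. Spi1, which encodes PU.1, the transcription factor that directs myeloid development, had 3.90, 14.8 and 29.0 TPM in VIL and 0 counts in COL_cWRNE, at least 409-fold higher (edgeR adjusted p = 0.00895). Csf1r, the receptor for colony-stimulating factor 1 and interleukin 34, had 5.75, 22.5 and 41.9 TPM in VIL, against 3.19, 3.08 and 2.32 TPM in COL_cWRNE (3.02 ± 0.59, edgeR adjusted p = 0.0158). The lowest VIL value was above the highest COL_cWRNE value, and the call ended with VIL replicate 1 as the only VIL library (1.04, edgeR adjusted p = 0.205) and without any 1 of the COL_cWRNE libraries (edgeR adjusted p of 0.0644 to 0.0796).

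Csf2rb, the signalling chain shared by the receptors for granulocyte-macrophage colony-stimulating factor, interleukin 3 and interleukin 5, had 4.00, 11.3 and 39.1 TPM in VIL and 1 count in COL_cWRNE. The ratio was 5048, with a 95% counting interval of 906 to 199400. Cx3cr1, the fractalkine receptor carried by many gut macrophages, was low, with 0.464, 2.26 and 3.71 TPM in VIL, against 0.037, 0.154 and 0.049 TPM in COL_cWRNE (4.30 ± 0.89, edgeR adjusted p = 0.021). It was not called without COL_cWRNE replicate 1 or 3, without VIL replicate 2 or with VIL replicate 1 alone. Cx3cr1 reached 0.113 TPM in the other 12 libraries, and Spi1 and Csf2rb were at 0.

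Among 6 identity markers, 5 rose in VIL. Adgre1, which encodes the F4/80 antigen, had 3.28, 16.1 and 13.3 TPM in VIL and 0 counts in all crypt-derived libraries, at least 753-fold higher than COL_cWRNE (edgeR adjusted p = 0.00528). Lyz2, the lysozyme gene of macrophages and other myeloid cells, had the highest level of the 39, with 906, 2574 and 4259 TPM in VIL, against 1.23, 3.58 and 1.66 TPM in COL_cWRNE (10.21 ± 0.75, edgeR adjusted p = 0.000248). Its level in each VIL library passed the summed level of all 39 genes in every crypt-derived library. Lyz2 has a near-identical neighbour, Lyz1, the lysozyme of Paneth cells, and reads could be split between the genes. Lyz1 had 4575, 1393 and 424 TPM in VIL, against 1173, 708 and 679 TPM in COL_cWRNE (1.39 ± 0.69, edgeR adjusted p = 0.278), so it was highest in the VIL library where Lyz2 was lowest.

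Mpeg1, which encodes the pore-forming perforin-2, had 2.14, 9.17 and 15.6 TPM in VIL, against 0.029, 0 and 0.133 TPM in COL_cWRNE (7.35 ± 1.10, edgeR adjusted p = 0.0102), and was not called without COL_cWRNE replicate 1 (edgeR adjusted p = 0.0603). Ms4a7, a membrane protein gene of macrophages, had 5.64, 20.9 and 27.3 TPM in VIL, against 0.16, 0 and 0 TPM in COL_cWRNE. Aif1, which encodes IBA1, an actin-bundling marker of macrophages and microglia, had 4.38, 13.0 and 15.9 TPM in VIL, against 0.64, 1.43 and 1.52 TPM in COL_cWRNE (3.93 ± 0.68, edgeR adjusted p = 0.0108), a call that ended without any 1 COL_cWRNE library (edgeR adjusted p of 0.0541 to 0.058) and with VIL replicate 1 as the only VIL library (1.97, edgeR adjusted p = 0.337). In the other 12 libraries Mpeg1 reached 0.128 TPM, Ms4a7 0.038 TPM and Aif1 0.354 TPM, so none of these 3 genes overlapped between VIL and the crypt-derived groups.

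Cd68, a lysosomal glycoprotein widely used as a macrophage marker, did not pass in this comparison. It had 59.4, 167 and 324 TPM in VIL, against 70.9, 57.2 and 61.8 TPM in COL_cWRNE (1.48 ± 0.45, edgeR adjusted p = 0.0812), and VIL replicate 1 lay within the COL_cWRNE values. Without VIL replicate 1 it passed (1.92, edgeR adjusted p = 0.00247), as it did with DESeq2, with no filter on low counts and with all 18 libraries in one fit (adjusted p of 0.00835 to 0.0268).

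Of the scavenger and pattern receptors, 3 of the 4 tested rose. Marco, a scavenger receptor for bacteria and particles, had 10.8, 18.0 and 31.3 TPM in VIL and 0 counts in every crypt-derived library, at least 737-fold higher than COL_cWRNE (edgeR adjusted p = 0.00269). Msr1, the class A scavenger receptor for modified lipoprotein, had 8.28, 29.4 and 62.1 TPM in VIL and 0 counts in every crypt-derived library, at least 1581-fold higher. Both genes were read in all 3 VIL libraries.

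Mrc1, which encodes the mannose receptor CD206, had 1.72, 5.59 and 7.01 TPM in VIL, against 1.28, 1.49 and 0.844 TPM in COL_cWRNE (2.06 ± 0.49, edgeR adjusted p = 0.0359). Its call ended in 7 alternatives, among them VIL replicate 1 as the only VIL library (0.74, edgeR adjusted p = 0.511). Cd14, the co-receptor for bacterial lipopolysaccharide, had 53.7, 185 and 93.0 TPM in VIL, against 68.1, 96.5 and 51.7 TPM in COL_cWRNE. These values overlapped, and it did not pass (0.69 ± 0.40, edgeR adjusted p = 0.358).

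All 8 Fc receptor and immunoreceptor genes rose. Tyrobp, which encodes the DAP12 adaptor, had 71.7, 243 and 347 TPM in VIL and 0 counts in COL_cWRNE, at least 1499-fold higher (edgeR adjusted p = 0.00463). Fcer1g, the signalling chain of activating Fc receptors, had 33.7, 155 and 279.6 TPM in VIL, against 0, 1.02 and 0.338 TPM in COL_cWRNE (9.17 ± 0.99, edgeR adjusted p = 0.00159). Trem2, a lipid-sensing receptor that signals through DAP12, had 7.66, 40.1 and 42.9 TPM in VIL, against 0, 0 and 0.508 TPM in COL_cWRNE (8.31 ± 1.15, edgeR adjusted p = 0.00761). Among the other 12 libraries Tyrobp reached 0.145 TPM, Fcer1g 0.308 TPM and Trem2 0, all below every VIL value.

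Fcgr3, an activating receptor for immunoglobulin G, had 26.0, 81.1 and 255 TPM in VIL, against 0, 0 and 0.742 TPM in COL_cWRNE (8.95 ± 1.29, edgeR adjusted p = 0.00892). Without COL_cWRNE replicate 1 it was not called (edgeR adjusted p = 0.0507). Fcgr2b, the inhibitory receptor for the same ligand, had 3.86, 31.2 and 92.3 TPM in VIL and 0 counts in COL_cWRNE, at least 1231-fold higher. Fcgr1, the high-affinity receptor, was the lowest of the family, with 0.262, 3.41 and 1.84 TPM in VIL and 0 counts in COL_cWRNE. It was at least 83.8-fold higher in VIL (edgeR adjusted p = 0.026), a call that ended in 5 alternatives (edgeR adjusted p of 0.0536 to 0.0775). In the other 12 libraries Fcgr3 reached 0.769 TPM and Fcgr2b 0.537 TPM, and Fcgr1 was at 0.

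Clec4n, which encodes the fungal sugar receptor dectin-2, had 34.9, 77.9 and 170.0 TPM in VIL and 0 counts in COL_cWRNE, at least 1960-fold higher. Lilrb4a, an inhibitory receptor of myeloid cells, had 14.3, 55.8 and 94.6 TPM in VIL and 0 counts in COL_cWRNE, at least 1791-fold higher. Clec4n reached 1.29 TPM and Lilrb4a 0.121 TPM in the other 12 libraries. The Fcgr genes, Clec4n, Lilrb4a and Csf2rb have close paralogs, and their separate values are uncertain to that extent.

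The 3 chains of complement C1q, the recognition protein of the classical complement pathway that macrophages secrete, rose together. C1qa had 46.1, 156 and 271 TPM in VIL, C1qb 71.9, 248 and 353 TPM, and C1qc 47.4, 196 and 290.5 TPM. All 3 had 0 counts in COL_cWRNE, and the VIL levels were at least 2480-fold, 3945-fold and 3376-fold higher (edgeR adjusted p = 0.00269 for C1qa, 0.00387 for C1qb and 0.00534 for C1qc). In each VIL library the chains lay within 1 order of magnitude of each other, with C1qb highest. Outside VIL and COL_cWRNE, C1qa reached 0.655 TPM, C1qb 0.367 TPM and C1qc 0.048 TPM.

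Promoter sequence was at hand for 28 of the 39 genes, as 35 windows of 300 bases, from 250 before to 50 after the start site, taken from RefSeq on GRCm38.p6, a different build from that of the counts. PU.1, the product of Spi1, binds purine-rich sites with a GGAA core, and the windows were searched on both strands for GAGGAA and for AGGAAGT, which can overlap. GAGGAA was in 20 of the 35 windows (57.1%, 18 genes) and in 28.3% of all 32851 windows. AGGAAGT was in 9 of the 35 (25.7%, 8 genes) and in 9.35% of all. A match is a run of letters, not a measured binding site. The windows of C1qb (chr4:136886151-136886450, minus strand), C1qc (chr4:136892865-136893164, minus strand), Lyz2 (chr10:117282223-117282522, minus strand) and Ctss (chr3:95526536-95526835, plus strand) are shown as 4 of the 8 genes with AGGAAGT, all above 100 TPM on average in VIL, with capitals for either motif on either strand. Gpnmb (chr6:49036268-49036567, plus strand), abundant in VIL too, is shown as 1 of the windows with neither motif.
C1qb: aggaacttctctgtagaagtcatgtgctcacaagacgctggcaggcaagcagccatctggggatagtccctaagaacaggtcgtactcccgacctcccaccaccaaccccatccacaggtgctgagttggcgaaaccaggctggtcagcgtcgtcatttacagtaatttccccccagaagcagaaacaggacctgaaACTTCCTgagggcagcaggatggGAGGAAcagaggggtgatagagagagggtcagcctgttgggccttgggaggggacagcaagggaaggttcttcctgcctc
C1qc: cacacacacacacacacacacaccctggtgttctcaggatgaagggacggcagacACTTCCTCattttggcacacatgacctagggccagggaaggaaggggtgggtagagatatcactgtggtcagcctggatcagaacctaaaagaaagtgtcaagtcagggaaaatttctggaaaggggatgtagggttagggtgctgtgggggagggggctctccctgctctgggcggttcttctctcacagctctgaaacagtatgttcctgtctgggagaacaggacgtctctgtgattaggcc
Lyz2: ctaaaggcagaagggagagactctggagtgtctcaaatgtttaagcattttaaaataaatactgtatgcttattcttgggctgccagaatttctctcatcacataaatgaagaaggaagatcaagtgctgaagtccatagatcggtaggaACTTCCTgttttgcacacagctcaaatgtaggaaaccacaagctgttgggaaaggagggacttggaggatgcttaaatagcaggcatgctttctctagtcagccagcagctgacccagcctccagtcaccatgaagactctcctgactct
Ctss: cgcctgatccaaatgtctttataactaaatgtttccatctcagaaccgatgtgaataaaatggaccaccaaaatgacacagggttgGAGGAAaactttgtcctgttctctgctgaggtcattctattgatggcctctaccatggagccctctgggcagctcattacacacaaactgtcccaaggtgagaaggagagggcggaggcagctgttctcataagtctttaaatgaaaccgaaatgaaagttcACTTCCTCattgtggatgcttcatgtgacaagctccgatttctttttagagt
Gpnmb: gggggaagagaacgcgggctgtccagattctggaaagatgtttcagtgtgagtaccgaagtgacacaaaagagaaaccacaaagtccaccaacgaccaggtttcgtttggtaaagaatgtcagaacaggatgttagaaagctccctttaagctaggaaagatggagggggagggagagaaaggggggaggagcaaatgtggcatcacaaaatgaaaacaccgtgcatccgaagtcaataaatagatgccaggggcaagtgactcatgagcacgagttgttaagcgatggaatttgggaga
In the C1qc window and at the second place in the Ctss window the capitals hold both motifs, overlapping on the minus strand of the window. No window was at hand for Spi1, Csf1r, Csf2rb, Adgre1, Msr1, Cd14, Tyrobp, Clec4n, Lilrb4a, C1qa and Lpl.

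The 4 lipid-handling genes rose in VIL. Apoe, the apolipoprotein that carries cholesterol out of macrophages, came next to Lyz2 in mean level over VIL, though below Wfdc17 in replicate 1, with 96.7, 1056 and 2857 TPM in VIL, against 2.10, 1.84 and 4.10 TPM in COL_cWRNE (8.67 ± 1.12, edgeR adjusted p = 0.00327). Gpnmb, a membrane glycoprotein of lysosomes in lipid-laden macrophages, had 64.6, 224 and 373 TPM in VIL, against 0, 0.328 and 0 TPM in COL_cWRNE (10.87 ± 1.20, edgeR adjusted p = 0.0037). Gpnmb reached 0.492 TPM in the other 12 libraries, and for both genes every VIL value was above every crypt-derived value.

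Lpl, which encodes lipoprotein lipase, had 5.68, 10.8 and 17.7 TPM in VIL, against 0.049, 0.067 and 0.149 TPM in COL_cWRNE (7.36 ± 0.59, edgeR adjusted p = 0.000358). Cd36, a fatty acid and lipoprotein receptor of macrophages that absorptive enterocytes also carry, had 18.1, 19.9 and 40.5 TPM in VIL, against 0.379, 0.176 and 0.105 TPM in COL_cWRNE (7.42 ± 0.42, edgeR adjusted p = 0.000166). Cd36 had the lowest p of the 39 genes, and VIL replicates 1 and 2 were close together.

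The lysosomal, oxidative and secreted genes rose, 3 of 3. Wfdc17, a secreted whey acidic protein family gene of activated macrophages, had the highest mean level after Lyz2 and Apoe, with 227, 578 and 726 TPM in VIL, against 0.648, 0.787 and 0 TPM in COL_cWRNE (9.97 ± 0.67, edgeR adjusted p = 0.000242). Ctss, which encodes cathepsin S, the protease that trims the invariant chain of MHC class II, had 51.6, 143 and 249 TPM in VIL, against 8.39, 5.73 and 10.8 TPM in COL_cWRNE (4.14 ± 0.48, edgeR adjusted p = 0.00229). Cybb, the catalytic subunit of the phagocyte NADPH oxidase, had 3.14, 9.77 and 26.9 TPM in VIL and 0 counts in COL_cWRNE, at least 1212-fold higher. In the other 12 libraries Wfdc17 reached 0.334 TPM and Cybb 0.178 TPM, and no VIL value of these 3 genes was reached in a crypt-derived library.

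Against MG_Control, the untreated Matrigel cultures, all 38 genes tested rose and 0 fell in VIL, where 46.6% of all genes were called (27.0% higher, 19.7% lower). Of the 38, 28 passed the filter only through VIL in this comparison too and so had to differ. Here matrix, medium and starting tissue all differed. Cd68, with its 59.4 to 324 TPM in VIL, stood against 1.30, 0.691 and 1.03 TPM in MG_Control (7.31 ± 0.61, edgeR adjusted p = 4.57e-05). Cd14 stood against 12.9, 17.2 and 20.8 TPM in MG_Control (2.58 ± 0.42, edgeR adjusted p = 0.00124). Lcp1 had the smallest change (0.42 ± 0.15, edgeR adjusted p = 0.0386), and that call ended in 7 alternatives (edgeR adjusted p of 0.0574 to 0.507).

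The VIL libraries differed among themselves in these genes more than in most. Replicate 1 was below the mean of replicates 2 and 3 for all 38 genes tested, in depth-scaled counts (CPM), with a median ratio of 0.234. Over the 10061 genes with at least 10 CPM in VIL the median ratio was 1.02, and 4742 of them were below 1. The ratio ran from 0.0557 for Ptprc to 0.759 for Lcp1, and it was between 0.14 and 0.32 for 29 of the 38. Replicate 3 over replicate 2 had a median of 1.48 and ran from 0.424 for Cd14 to 2.78. Lyz2, Apoe and Gpnmb had the highest mean CPM of the 39 over VIL. Together they made up 53.6%, 57.8% and 63.3% of the summed TPM of the 39 in replicates 1, 2 and 3. By mean TPM over VIL, Wfdc17 was above Gpnmb, at 510 against 220.5 TPM.

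**Figure D2:**
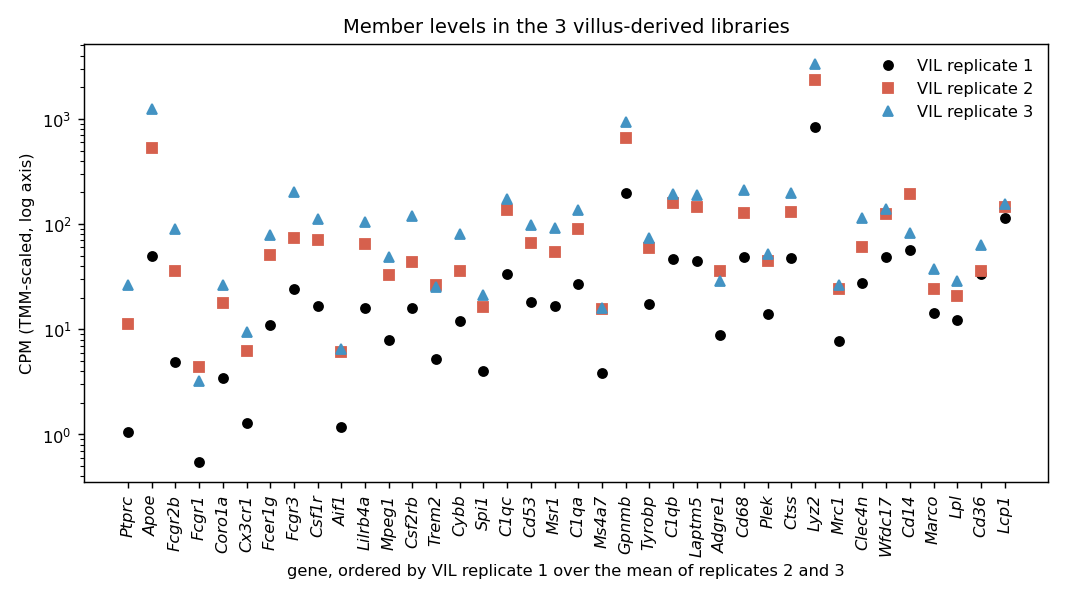
Depth-scaled counts (CPM, log axis) of 38 genes in the 3 VIL libraries, ordered from left to right by replicate 1 over the mean of replicates 2 and 3. Circles (replicate 1) are lowest for every gene shown. The ratio is 0.0557 for Ptprc at the left and 0.759 for Lcp1 at the right.

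VIL replicate 1 as the only VIL library was an alternative chosen after the data were seen. In it the lone library is assumed to vary like the other groups. The calls of Ptprc, Coro1a, Csf1r, Cx3cr1, Aif1 and Mrc1 against COL_cWRNE ended there, with log2 fold changes of 7.94, 3.31, 1.04, 2.19, 1.97 and 0.74. Without replicate 1, 37 of the 39 genes passed, where 2050 genes were called among all tested. The 14 intestinal epithelium markers went both ways, with replicate 1 below the mean of replicates 2 and 3 for 5 and above it for 9. The ratio ran in TPM from 0.248 for Krt20 to 6.31 for Olfm4. That of their summed CPM was 1.02, and that of their summed TPM without Lyz1 was 0.807. The summed CPM of the 18 fibroblast and smooth muscle markers in replicate 1 was 0.107 times that mean. Their TPM sums were 52.3, 581 and 756 in VIL replicates 1, 2 and 3 and 43.5 to 126 in COL_cWRNE. Fn1 alone gave most of the COL_cWRNE sums, with 38.95, 118.5 and 48.4 TPM there, against 13.7, 57.4 and 96.5 TPM in VIL. The part of these markers in the results for the 39 genes was not tested.

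Other macrophage and phagocyte genes, a list of 50, were set beside the 39. Of 45 tested, 41 rose and 0 fell in VIL against COL_cWRNE, with a median log2 fold change of 8.49. Of the 45, 30 passed the filter on low counts only through VIL and so had to differ, and the count is no separate support. The count was 25 with VIL replicate 1 as the only VIL library, and 25 without COL_cWRNE replicate 1 or replicate 3. Clec7a, the receptor dectin-1 for fungal glucan, had 27.2, 41.2 and 69.8 TPM in VIL, against 0.218, 0 and 0 TPM in COL_cWRNE (10.25 ± 0.74, edgeR adjusted p = 0.000766). Sirpa, an inhibitory receptor that binds CD47, had 9.41, 28.1 and 43.2 TPM in VIL, against 0.33, 0.931 and 0.422 TPM in COL_cWRNE (5.78 ± 0.67). Fermt3, a leukocyte integrin activator, rose by 6.67 ± 0.64, and Siglec1, a sialic acid receptor of tissue macrophages, by 8.52 ± 1.05.

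Of 19 activation and foam cell genes tested, 10 rose and 0 fell in VIL against COL_cWRNE, where 7.64% of all genes were called. Of the 19, 7 passed the filter on low counts only through VIL and so had to differ. Without VIL replicate 1, 16 genes of the list were called, beside 2050 genes among all tested. Mmp12, the macrophage elastase, had 92.6, 322 and 479 TPM in VIL, against 0, 1.05 and 0 TPM in COL_cWRNE (9.82 ± 1.15, edgeR adjusted p = 0.0042). Atp6v0d2, a subunit of the vacuolar proton pump, rose by 7.80 ± 1.09, the chemokine gene Ccl2 by 4.55 ± 0.55, and Lipa, the lysosomal acid lipase, by 2.59 ± 0.25. All 3 passed (edgeR adjusted p of 0.000928 to 0.00516).

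Markers of other cell types were measured beside these. Of 15 fibroblast and smooth muscle genes tested, 14 rose and 0 fell in VIL, where 11 of the 15 passed the filter only through VIL. The count was 5 to 8 with VIL replicate 1 as the only VIL library, without VIL replicate 2 or without any 1 COL_cWRNE library. Vim had 7.07, 36.3 and 34.6 TPM in VIL, against 0.544, 1.01 and 0.778 TPM in COL_cWRNE (4.92 ± 0.62, edgeR adjusted p = 0.00292). Sparc, Col3a1 and Col1a2, which encode matrix proteins, passed too (edgeR adjusted p of 0.00301 to 0.00849). Only Mgp of the 18 was at 0 counts over VIL, against 10 of the 18 over COL_cWRNE.

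Lymphocyte markers were low in every group. The 12 T and NK cell markers summed to 5.13, 6.61 and 19.8 TPM in VIL, against 5.98 to 7.39 TPM in COL_cWRNE, and 5 were at 0 counts over VIL. Of 3 tested, 1 rose, Cd4, a co-receptor of helper T cells that some macrophages also carry, with 1.42, 4.05 and 16.1 TPM in VIL and 0 counts in every crypt-derived library. Cd4 passed the filter on low counts only through VIL and so had to differ. It was not called without COL_cWRNE replicate 1 or replicate 3. Cd3e had 0, 0.337 and 0.303 TPM in VIL, against 0.034, 0 and 0 TPM in COL_cWRNE, and was not tested. Of the 7 B and plasma cell markers, which summed to at most 0.901 TPM in VIL and 0.971 TPM in COL_cWRNE, Cd79b alone was tested and did not pass (edgeR adjusted p = 0.782). Of the 9 neutrophil markers, Ly6g alone was tested, with 7.30, 11.1 and 108 TPM in VIL, against 61.0, 37.8 and 25.9 TPM in COL_cWRNE (-0.12 ± 0.89, edgeR adjusted p = 0.957). S100a8, which neutrophils make in bulk, had 0.448, 3.54 and 1.74 TPM in VIL.

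Of 7 mast cell and eosinophil genes tested, 3 rose in VIL, where 7.64% of all genes were called. They were the mast cell protease genes Cpa3 and Mcpt4 and the receptor gene Fcer1a. Of the 7, 4 passed the filter on low counts only through VIL and so had to differ. Cpa3 and Fcer1a were among these, with 0 counts in every crypt-derived library. No gene of that list was called by edgeR without VIL replicate 2 or without any 1 COL_cWRNE library, and 6 were called by DESeq2. Of 7 MHC class II genes, H2-Eb1 (2.92 ± 0.67, edgeR adjusted p = 0.0309) and H2-DMb1 (2.04 ± 0.52, edgeR adjusted p = 0.0456) rose, and none was called without VIL replicate 2 or without any 1 COL_cWRNE library. For dendritic cells, endothelium, and enteric glia and neurons, 0 of 1, 0 of 5 and 0 of 2 genes tested were called by edgeR. At an unadjusted p under 0.05 these counts were 0, 2 and 0, and DESeq2 called 1 endothelial gene.

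**Figure D3:**
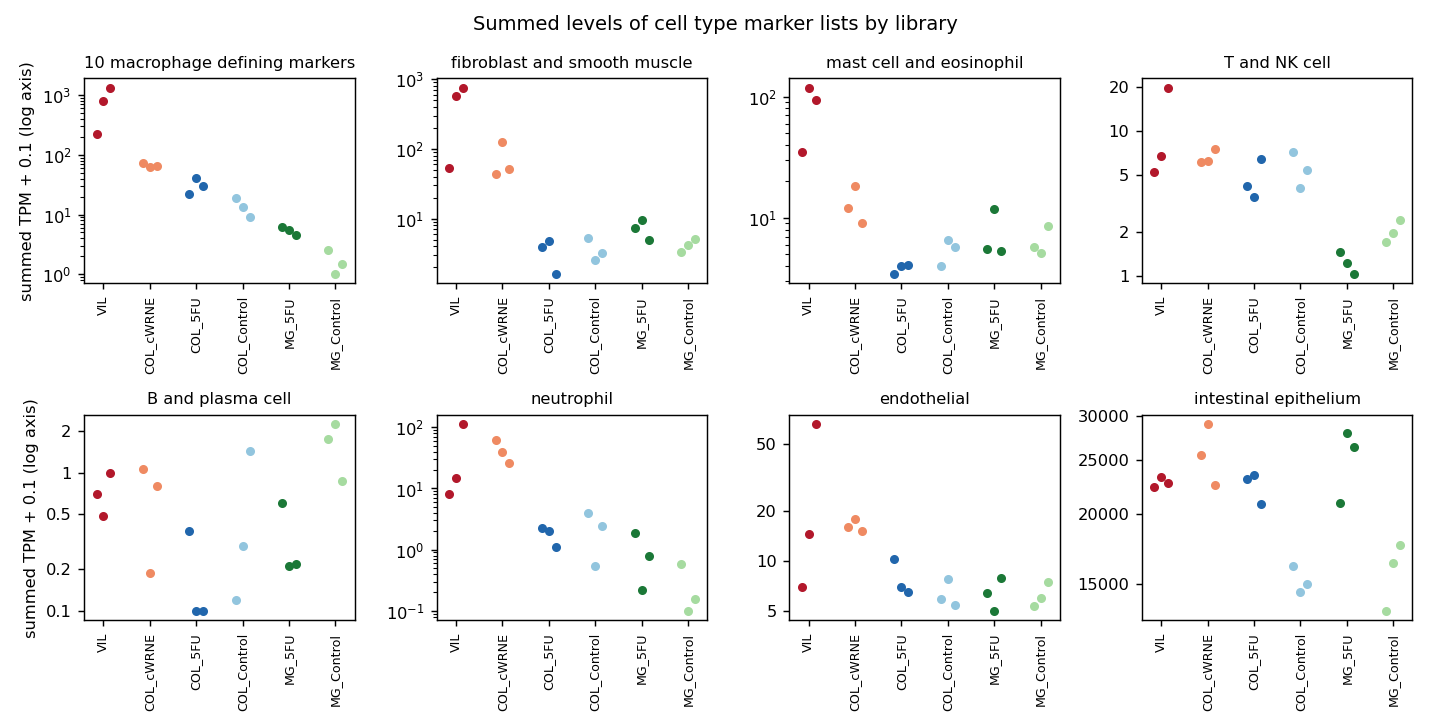
Summed TPM (log axis, 0.1 added) of 8 marker lists in each library, by group. The sums of the 10 macrophage markers, all among the 39 genes, are 226 to 1332 TPM in VIL and lie above all other groups. The fibroblast sums of VIL replicate 1 and COL_cWRNE overlap, with Fn1 giving most of the COL_cWRNE sums. The epithelial sums of VIL, 22410 to 23280 TPM, overlap those of COL_cWRNE.

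Among the crypt-derived groups, 11 of the 39 genes were called in at least 1 comparison and 28 in none. In the fit of the groups with and without 5-FU, 28 of the 39, not all the same, were too low to test. Having no call is therefore not to be read as being unchanged. Single comparisons among these groups called 18.0% to 35.3% of all genes, and the share called in at least 1 was not computed. COL_cWRNE against MG_Control asked how the collagen culture with cWRNE medium differed from Matrigel culture. Of 38 genes tested 6 rose and 2 fell in COL_cWRNE, where 33.3% of all genes were called (20.1% higher, 13.1% lower). Of the 38, 28 passed the filter only through VIL and had few or no counts in these groups, so the 8 calls are not to be read as a share of 38; 10 would pass without VIL. The COL_cWRNE cultures were also set against COL_Control, which shares the collagen but had ENRW medium. Of 38 genes tested in that fit, of which 12 would pass without VIL, 3 rose and 0 fell, where 18.0% of all genes were called (13.1% higher, 4.85% lower). These comparisons share the COL_cWRNE libraries.

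Csf1r, Laptm5 and Cd68 rose in both. The 3.19, 3.08 and 2.32 TPM of Csf1r in COL_cWRNE stood against 0.116, 0.293 and 0.121 TPM in COL_Control (3.80 ± 0.56, edgeR adjusted p = 0.000251) and 0.153, 0.212 and 0.090 TPM in MG_Control (3.75 ± 0.67, edgeR adjusted p = 0.00247). Laptm5, at 2.74 to 3.89 TPM in COL_cWRNE, had 0, 0 and 0.319 TPM in COL_Control (5.52 ± 0.91, edgeR adjusted p = 0.000834) and 0.091, 0.141 and 0 TPM in MG_Control (5.12 ± 0.82, edgeR adjusted p = 0.00142). With 5-FU, Csf1r had 0.35, 0.262 and 0.475 TPM in COL_5FU and 0.268, 0.258 and 0.245 TPM in MG_5FU. Laptm5 was at 0 in COL_5FU and had 0.319, 0.561 and 0.198 TPM in MG_5FU. The COL_cWRNE values of both genes lay above every other crypt-derived library and below every VIL library.

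Other macrophage genes were at 0 counts in COL_cWRNE, among them Spi1, Adgre1, Tyrobp, C1qa, C1qb and C1qc, which by counting error alone allows up to 3 counts over the 3 libraries. The macrophage growth factor genes Csf1 and Il34, the ligands of the Csf1r product, and Csf2 and Csf3 all rose in COL_cWRNE, against COL_Control and against MG_Control. Il34 had 17.6, 15.2 and 12.5 TPM in COL_cWRNE, against 2.74, 1.10 and 0.473 TPM in COL_Control (3.31 ± 0.53, edgeR adjusted p = 0.000482). Csf1 had 4.76, 10.5 and 8.59 TPM in COL_cWRNE, against 2.02, 2.47 and 1.52 TPM in COL_Control (2.11 ± 0.36, edgeR adjusted p = 0.000776). In COL_5FU over COL_Control 3 of 3 of these genes tested rose too, Csf1 by 2.81 ± 0.34, Il34 by 1.83 ± 0.56 and Csf2 by 4.63 ± 0.78 (edgeR adjusted p of 4.35e-05 to 0.0205). Between VIL and COL_cWRNE 0 of these 4 genes were called by edgeR, 1 had an unadjusted p under 0.05, and DESeq2 called 1.

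Cd68 stepped through the crypt-derived groups. It had 70.9, 57.2 and 61.8 TPM in COL_cWRNE, 21.5, 40.3 and 28.6 TPM in COL_5FU, and 18.6, 12.7 and 8.78 TPM in COL_Control. It had 5.16, 4.39 and 3.77 TPM in MG_5FU, and 1.30, 0.691 and 1.03 TPM in MG_Control. These 5 groups did not overlap in that order. The rise in COL_cWRNE was 2.32 ± 0.44 over COL_Control (edgeR adjusted p = 0.00161) and 5.84 ± 0.58 over MG_Control (edgeR adjusted p = 9.96e-05).

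Cd14 and Mrc1 rose in collagen over Matrigel. In COL_Control against MG_Control, which asked what the matrix and its medium changed without drug, 3 of 11 genes tested rose and 3 fell, where 31.2% of all genes were called (15.8% higher, 15.4% lower). Cd14 had 58.4, 39.4 and 29.5 TPM in COL_Control, against 12.9, 17.2 and 20.8 TPM in MG_Control (1.12 ± 0.26, edgeR adjusted p = 0.00486), and 1.89 ± 0.41 was its rise in COL_cWRNE over MG_Control. Mrc1 had 1.32, 1.21 and 0.973 TPM in COL_Control, against 0.379, 0.112 and 0.338 TPM in MG_Control (2.15 ± 0.40, edgeR adjusted p = 0.00112), and rose by 2.25 ± 0.52 in COL_cWRNE. With 5-FU, Cd14 had 72.9, 64.3 and 45.4 TPM in COL_5FU and 11.5, 13.4 and 15.7 TPM in MG_5FU, and Mrc1 had 0.972, 1.32 and 1.38 TPM in COL_5FU. Cd14 values of the collagen groups thus lay above all Matrigel values with or without the drug. Cd68 rose by 3.56 ± 0.40 in COL_Control (edgeR adjusted p = 1.84e-05).

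Cd36, Ctss and Lcp1 fell in COL_Control. Cd36 had 0, 0.163 and 0.117 TPM in COL_Control, against 3.58, 4.51 and 6.73 TPM in MG_Control (-5.98 ± 0.72, edgeR adjusted p = 3.46e-05), and fell by 5.14 ± 0.40 in COL_cWRNE (edgeR adjusted p = 3.07e-05). With 5-FU it had 0.145, 0 and 0 TPM in COL_5FU and 5.94, 13.4 and 10.1 TPM in MG_5FU. All 9 crypt-derived collagen libraries were under 0.4 TPM and all 6 Matrigel libraries above 3 TPM. Ctss had 2.39, 4.13 and 5.54 TPM in COL_Control, against 12.9, 15.0 and 17.4 TPM in MG_Control (-2.12 ± 0.37, edgeR adjusted p = 0.000634). Lcp1 fell by 0.42 ± 0.12 in COL_Control and by 0.65 ± 0.15 in COL_cWRNE, and both calls ended when some libraries were left out (edgeR adjusted p of 0.0543 to 0.0823). Lpl, at 0.049 to 0.149 TPM in COL_cWRNE and 1 count in MG_Control, passed at an edgeR adjusted p of 0.0423, which ended in 6 alternatives (edgeR adjusted p of 0.0535 to 0.172). It had 0, 0 and 0.223 TPM in COL_5FU, 0.025, 0.08 and 0 TPM in COL_Control, 0, 0.033 and 0 TPM in MG_5FU, and 0, 0.019 and 0 TPM in MG_Control.

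5-FU in Matrigel changed 4 of 11 genes tested, 3 up and 1 down, where 30.9% of all genes were called (19.2% higher, 11.7% lower). Cd68 rose by 2.46 ± 0.39 in MG_5FU (edgeR adjusted p = 0.000321). Lyz2 had 12.1, 15.3 and 10.8 TPM in MG_5FU, against 5.87, 4.63 and 2.74 TPM in MG_Control (1.82 ± 0.31, edgeR adjusted p = 0.000586). Mrc1 had 0.615, 0.307 and 0.562 TPM in MG_5FU, against 0.379, 0.112 and 0.338 TPM in MG_Control, values that overlapped (1.52 ± 0.40, edgeR adjusted p = 0.0101). The 10 macrophage markers summed to 4.38 to 6.08 TPM in MG_5FU and 0.903 to 2.47 TPM in MG_Control, most of it Cd68. Of the 10, 3 were at 0 over MG_5FU and 5 over MG_Control. Lcp1 had 28.4, 26.3 and 23.6 TPM in MG_5FU, against 44.0, 44.3 and 53.2 TPM in MG_Control (-0.62 ± 0.12, edgeR adjusted p = 0.00183).

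5-FU in collagen changed 5 of 11, 1 up and 4 down, where 35.3% of all genes were called (18.6% higher, 16.7% lower). Cd68 rose, by 1.30 ± 0.34 (edgeR adjusted p = 0.00879). The 10 macrophage markers summed to 21.9 to 40.8 TPM in COL_5FU and 8.90 to 19.0 TPM in COL_Control. Nearly all of that was Cd68 itself, at 21.5, 40.3 and 28.6 TPM in COL_5FU and 18.6, 12.7 and 8.78 TPM in COL_Control. Of the 10, 6 were at 0 over COL_5FU and 5 over COL_Control. Lcp1 had 6.70, 6.39 and 8.06 TPM in COL_5FU, against 30.4, 45.7 and 39.7 TPM in COL_Control (-2.37 ± 0.13, edgeR adjusted p = 1.14e-07). Ctss had 0.473, 0.697 and 0.139 TPM in COL_5FU, against 2.39, 4.13 and 5.54 TPM in COL_Control (-3.05 ± 0.44, edgeR adjusted p = 0.000141). Neither gene overlapped between the groups, and both were lower in COL_5FU than in any other library.

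Apoe had 0.899, 1.11 and 1.47 TPM in COL_5FU, against 5.78, 2.62 and 3.78 TPM in COL_Control (-2.09 ± 0.48, edgeR adjusted p = 0.00424). Lyz2 had 2.34, 1.98 and 2.71 TPM in COL_5FU, against 3.78, 7.22 and 4.10 TPM in COL_Control (-0.94 ± 0.32, edgeR adjusted p = 0.0346). Apoe in Matrigel had 1.97, 1.29 and 1.35 TPM in MG_5FU, against 1.84, 4.16 and 3.17 TPM in MG_Control, values that overlapped (-0.49 ± 0.46, not called). With all 18 libraries in one fit neither Apoe (edgeR adjusted p = 0.122) nor Lyz2 (0.174) passed, and Lyz2 was also lost without any 1 COL_5FU library or without COL_Control replicate 2. Cd68 did not pass without COL_5FU replicate 2 (1.01, edgeR adjusted p = 0.0536).

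The difference between the 5-FU effects in the matrices was tested directly, as collagen minus Matrigel. Of 11 genes, 3 were lower in that difference and none was higher, also not at an unadjusted p under 0.05, where 8.19% of all genes were called (1.88% higher, 6.3% lower). Lcp1 differed by -1.75 ± 0.18 (edgeR adjusted p = 9.05e-05), Lyz2 by -2.76 ± 0.45 (edgeR adjusted p = 0.00198) and Ctss by -3.03 ± 0.56 (edgeR adjusted p = 0.00452). Ctss showed no call in Matrigel, with 11.9, 13.3 and 10.3 TPM in MG_5FU, against 12.9, 15.0 and 17.4 TPM in MG_Control (-0.03 ± 0.34). Lyz2 differed in direction between the matrices. Its neighbour Lyz1, at far higher level, changed by 1.85 ± 0.15 with 5-FU in Matrigel and 0.10 ± 0.15 in collagen (difference -1.75 ± 0.21, edgeR adjusted p = 0.000244), and its part in the Lyz2 values was not tested. For Cd68, Mrc1 and Apoe the difference did not pass (edgeR adjusted p of 0.168 to 0.195).

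**Figure D4:**
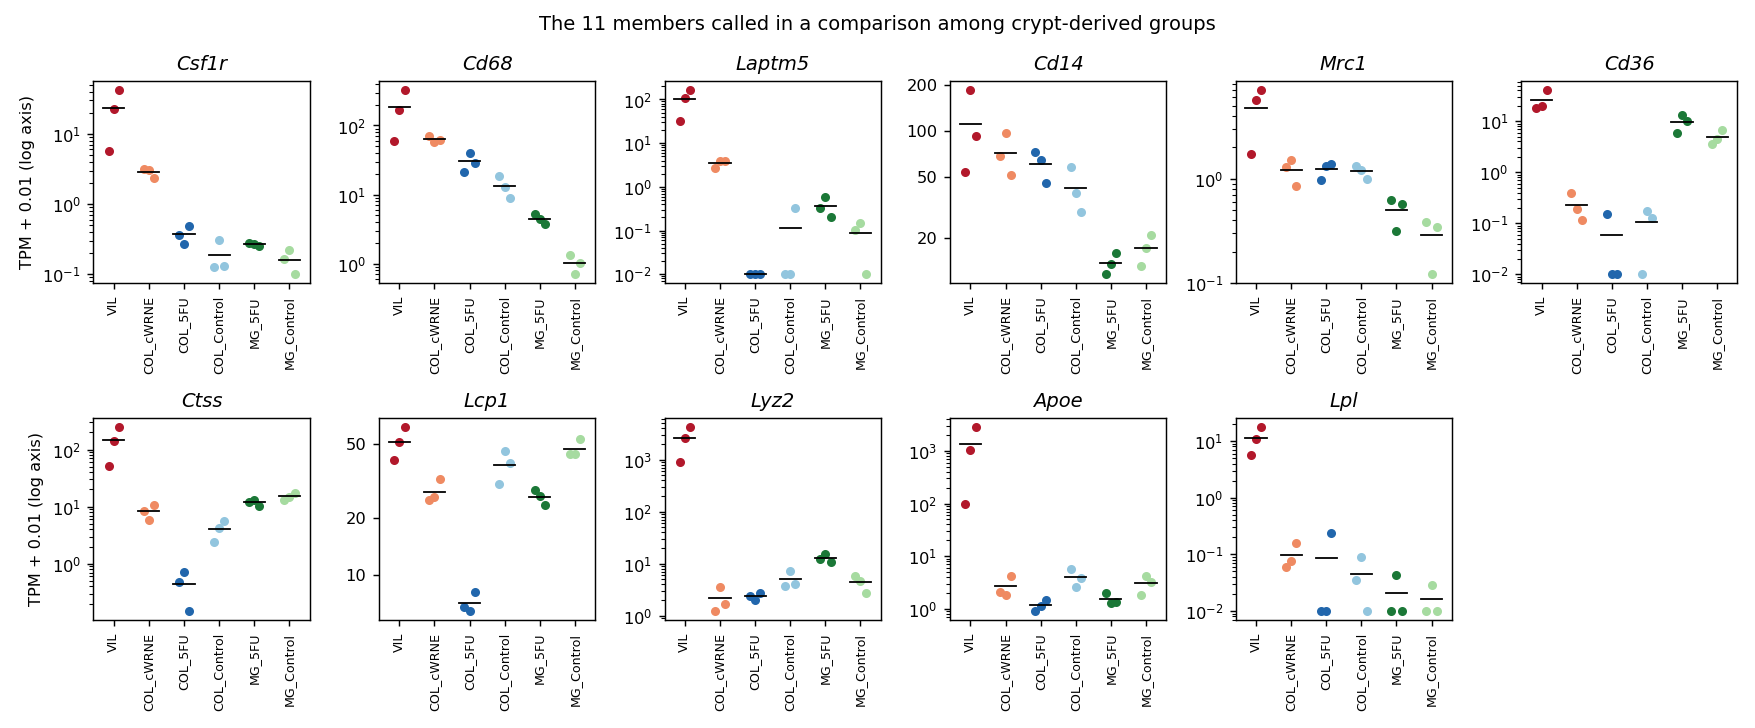
TPM (log axis, 0.01 added) of the 11 genes called in a comparison among crypt-derived groups, with 1 point per library and a bar at the group mean. Cd68 steps down from COL_cWRNE to MG_Control without overlap of those 5 groups, Cd36 is under 0.4 TPM in all crypt-derived collagen libraries, and Lcp1 and Ctss are lowest in COL_5FU.

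Traces of the other genes appeared in 1 crypt-derived library more than elsewhere. Between 20 and 26 of the 39 genes had 0 counts in each crypt-derived library except MG_5FU replicate 2, where 13 did. That library held 45 counts of Gpnmb, 9 of Clec4n and 7 of C1qb, none of which was called in MG_5FU against MG_Control, since these genes did not pass the filter there.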

How the data were processed

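RNA was sequenced from 18 organoid cultures in 6 groups of 3, with SMART-Seq mRNA and Nextera XT libraries on a NovaSeq X Plus, per the labels' protocols. Bcl2fastq 2.20, DRAGEN and the mouse build GRCm39 (mm39) are named, per the submitters' processing notes. The aligner, the counting tool, its use of strand and the annotation are not given in the sources used here. The authors deposited 1 table with estimated counts and TPM for 55414 gene IDs, per the file headers. Of the nonzero deposited counts 67.8% were whole, and counts were rounded before testing. TPM values were used for levels as deposited, and scaled CPM were computed from the counts with edgeR's TMM factors. Gene IDs carried a symbol for 52081 rows and none for 3333.

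Tests used edgeR 4.0.16 (glmQLFit and glmQLFTest, R 4.3.3, with limma 3.58.1) after filterByExpr (count of at least 10, total of at least 15), with Benjamini-Hochberg adjustment over all genes tested and a threshold of 0.05. VIL, COL_cWRNE and MG_Control entered one fit of 9 libraries, the 4 groups with and without 5-FU a fit of 12, and COL_cWRNE was set against COL_Control in a fit of all 18. The SE was derived from the fold change and the F statistic. The procedure was tested on simulated data. Of the 39 genes, 38 passed the filter in the 9-library fit (10 would without VIL) and 11 in the 12-library fit. Folds against a group with 0 counts were set against 3 counts over the group. Counting intervals are exact at 95%, and they and the bounds cover counting error only. The p-values measure the spread among these cultures.

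Alternatives were RLE size factors, library totals, no filter beyond 1 count, DESeq2 1.42.0, all 18 libraries in one fit, the replicate number as a block, each replicate left out, and, added after the data were seen, VIL replicate 1 as the only VIL library. Same-numbered libraries deviated together in all 3 pairs for 5-FU against control in Matrigel (correlations of 0.155 to 0.532) and in collagen (0.124 to 0.41) and for COL_cWRNE against COL_Control (0.189 to 0.267). The labels do not say what a replicate number shares. For VIL against COL_cWRNE 1 of 3 pairs did, so these were not taken as paired. No pair of libraries of the same group agreed within sampling noise (lowest chi-square per degree of freedom 11.3). Pairs across groups were not compared in this way.

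All 39 genes are named, the per-library values are given for each called in at least 1 comparison, other lists are shown by up to 4 genes with the lowest adjusted p in VIL against COL_cWRNE, and control genes were named whatever their result. The members and lists were chosen with earlier results of these data known. Genes of most similar pattern were not sought, since the VIL libraries form a cluster of their own.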

Additional observations from a re-analysis of the deposited data

Results flagged for a closer look

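The effect of 5-FU differed between collagen and Matrigel for 3 of the 11 genes tested, by a direct test of the difference (edgeR's quasi-likelihood test, Benjamini-Hochberg adjusted). Over all genes tested 8.19% were called (1.88% higher, 6.3% lower). Medium differed too, ENRW in collagen and ENR in Matrigel, and cannot be told apart from the matrix. The log2 difference, collagen minus Matrigel, was -1.75 for Lcp1, -2.76 for Lyz2 and -3.03 for Ctss. Lcp1 fell with 5-FU in both matrices, Lyz2 rose in Matrigel and fell in collagen, and Ctss fell in collagen with no call in Matrigel. The collagen fall of Lyz2 was lost with all 18 libraries in one fit and without COL_5FU replicate 1, 2 or 3. It was also lost without COL_Control replicate 2 (edgeR adjusted p of 0.0577 to 0.174 over these). Reads could be split between Lyz2 and its near-identical neighbour Lyz1, and the part of Lyz1 in the Lyz2 values was not tested.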

How the results depend on the processing

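For single genes, 2100 recomputed values kept their side of the threshold, 23 newly passed and 65 no longer passed. Among values that passed in the main fit or in the alternative, 0 reversed direction. Changes of direction between values that passed in neither were not counted. Counts of called genes that moved by over 1.5 times are given here, and the cause was not tested. For VIL against COL_cWRNE, 1276 genes were called, 2264 with DESeq2 and 2480 with all 18 libraries in one fit. Leaving out 1 library gave 351 to 2050 genes (2050 without VIL replicate 1, 678 without VIL replicate 2, and 371, 474 and 351 without COL_cWRNE replicate 1, 2 and 3) and 27 to 37 of the 39 members. VIL replicate 1 as the only VIL library gave 29 members, and 4637 of 7789 genes against MG_Control. For the difference of 5-FU effects, 1360 genes were called, 2219 with DESeq2 and 521 with all 18 libraries. Members called for MG_5FU against MG_Control were 4, and 7 with no filter. For COL_5FU against COL_Control they were 5, and 3 with all 18 libraries or without COL_5FU replicate 2. For COL_cWRNE against COL_Control they were 3, and 5 with DESeq2. Over the left-out libraries the other counts of genes and members were 5752 to 8604 and 37 to 38 (VIL against MG_Control), 3630 to 4324 and 6 to 8 (COL_cWRNE against MG_Control), 1907 to 2669 and 3 to 4 (COL_cWRNE against COL_Control), 4139 to 4610 and 4 to 5 (MG_5FU), 4566 to 5584 and 3 to 7 (COL_5FU), 3977 to 4755 and 5 to 6 (COL_Control against MG_Control), and 931 to 1297 and 3 to 3 (difference of effects). With the replicate number as a block, VIL against COL_cWRNE gave 33 members and 874 genes, and Ptprc, Mrc1 and Fcgr1 no longer passed (edgeR adjusted p of 0.0515, 0.0851 and 0.0536); the block changed no other call among the 39 genes in any comparison. With unscaled library totals the median log2 fold change of all genes moved by -0.15 for MG_5FU, -0.105 for COL_5FU and -0.16 for COL_cWRNE against COL_Control, and by under 0.1 for the other comparisons. The share of calls that were higher became 44.6% in place of 62.2% for MG_5FU, 41.7% in place of 52.8% for COL_5FU, 59.7% in place of 50.7% for COL_Control, 45.2% in place of 73.0% for COL_cWRNE against COL_Control and 33.0% in place of 23.0% for the difference. For genes at 0 counts in a group, depth limits the fold to a lower bound.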
